A study of Mus musculus with 5 samples.

Results

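CD8 T cells whose receptor was seen in a single cell were taken from tissue of tumour-bearing mice, and their naive and effector states are described here. There were 350 such cells, 304 in the anti-CTLA-4 library and 46 in the control library, of 9835 cell barcodes in both expression libraries. A barcode was taken when 200 genes or more were detected in it and mitochondrial genes took no more than 15% of its transcripts. It needed at least 1 unique molecular identifier (UMI, a count of 1 captured RNA molecule) of Cd8a or Cd8b1, at least 1 UMI of the CD3 genes Cd3e, Cd3d or Cd3g, no Cd4 UMI and fewer than 2 UMIs of the cycling genes Mki67, Top2a and Birc5. It also had to carry an assembled T cell receptor (TCR) beta chain, and its deposited clonotype, the set of cells with the same receptor, had to hold only 1 barcode with a beta chain. These values chose the cells, so the absence of cycling, the presence of CD8 and CD3 and the lack of Cd4 are not findings.

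The mice were BALB/c animals, 6 weeks old, with CT26 tumours, a colon carcinoma line of the mouse, grown under the skin. The treated animals received 100 µg of the anti-CTLA-4 antibody 9H10 into the peritoneum on days 5, 8 and 11, and the controls received phosphate-buffered saline (PBS) on the same days. All were sacrificed on day 13, and the labels call the material only tissue, which was dissociated with a tumour kit and run on a droplet platform that reads the 5' ends of transcripts. Each group had 1 expression and 1 TCR library, and the anti-CTLA-4 group also a B cell receptor (BCR) library. The labels do not say how many animals a library holds. Cells of 1 library are not replicates, so no test between the treatments was possible. Every interval below is an exact 95% interval that covers counting error only.

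A naive CD8 T cell has not met its antigen. It circulates through lymph nodes with the help of the chemokine receptor Ccr7, and it keeps a quiescent state with the transcription factors Lef1, Tcf7 and Klf2. On meeting antigen it divides, so that many cells share 1 receptor, and its daughters make granzymes, chemokines and interferon gamma. CTLA-4 restrains this step by competing with CD28 for its ligands. A cell with a receptor seen once may be naive, or it may belong to a clone of which only 1 cell was captured.

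Of 735 anti-CTLA-4 and 107 control barcodes with a CD8 UMI that passed the quality limits, 508 and 50 met all conditions and carried a beta chain. Unexpanded clonotypes held 304 of the 508 (59.8%, 55.4 to 64.1) in the anti-CTLA-4 library and 46 of the 50 (92%, 80.8 to 97.8) in the control library. The TCR libraries were unequal, with 1529 and 282 barcodes with a beta chain, and fewer sampled cells make clones look unexpanded. At 282 barcodes the expected share in the anti-CTLA-4 library would be 72.6%. Just inside the CD8 limit were 58 anti-CTLA-4 and 13 control cells with a single CD8 UMI. A single Cd4 UMI or more was found in 13 and 2 barcodes that met the other conditions, with the cycling limit not applied. Cycling genes kept out 6 and 8 that met all other conditions. No member shared its barcode with the other library.

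The anti-CTLA-4 library held 19989467 UMIs and the control library 86478313, but the members had a median of 4344 UMIs in the anti-CTLA-4 library and 2925 in the control library, with 1427 and 1145 detected genes. The naive marker Lef1 was detected in 189 of 304 anti-CTLA-4 members (62.2%) and in 17 of 46 control members (37.0%), so not all members carried this marker. Of 10 natural killer genes, 6 were detected in each library, with 482 UMIs in anti-CTLA-4 members, 3.26 per 10000, and 35 in control members, 2.14 per 10000. Gzma, which T cells make too, gave 361 of the 482, and Ncr1, Klrb1c, Klra8 and Klra4 were at 0 in both libraries. All 9 B cell genes were detected in anti-CTLA-4 members, with 528 UMIs, 3.57 per 10000, of which Cd74 gave 256 and H2-Aa 106. In control members 3 of the 9 were detected, with 87 UMIs, 5.32 per 10000, and 78 of these lay in 1 cell. Genes of tumour-like cells (Crabp1, Areg and keratins) had 17 UMIs in anti-CTLA-4 members, 0.115 per 10000, against 78 UMIs in control members, 4.77 per 10000. They were seen in 4.28% of the anti-CTLA-4 members and in 69.6% of the control members, while the libraries held 25 and 2944 barcodes with at least 3 Crabp1 UMIs and none of the leukocyte gene Ptprc. Monocyte and macrophage genes stood at 3.08 and 15.6 per 10000. At least 3 UMIs of another lineage's genes were found in 64 anti-CTLA-4 and 17 control members. The part of this RNA in the differences between the libraries was not tested.

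State was read from 5 genes. A member was called naive when its UMIs of Lef1 and Ccr7 outnumbered those of Ccl5, a chemokine, Nkg7, a protein of cytotoxic granules, and Gzmb, which encodes granzyme B. It was called effector in the reverse case and undetermined in a tie. In the anti-CTLA-4 library 248 members were naive (81.6%, 76.8 to 85.8), 48 were effector (15.8%, 11.9 to 20.4) and 8 were undetermined. In the control library 27 were naive (58.7%, 43.2 to 73.0), 14 were effector (30.4%, 17.7 to 45.8) and 5 were undetermined. Depth differed, so every cell was thinned to 1000 UMIs, which left out no anti-CTLA-4 member and 1 control member. The naive shares were then 58.9% in the anti-CTLA-4 and 53.3% in the control library, and the effector shares 16.1% and 28.9%, with intervals that overlap for both states. Undetermined were 76 of 304 anti-CTLA-4 (25%) and 8 of 45 control members (17.8%). The anti-CTLA-4 effector count was 49, so the lower naive share there went with more ties and not with more effector calls.

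**Figure D1:**
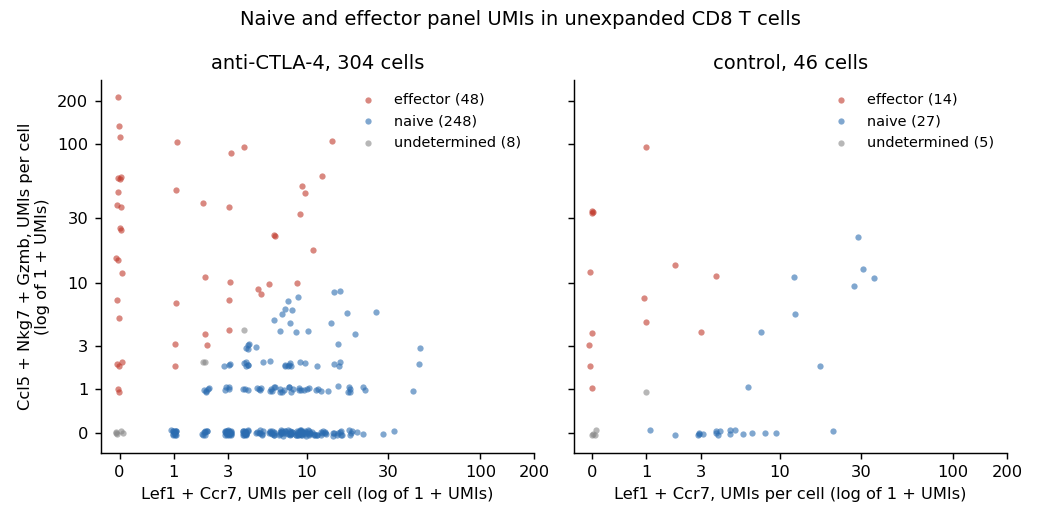
Each point is 1 CD8 T cell with an unexpanded clonotype, anti-CTLA-4 left and control right, with its UMIs of Ccl5, Nkg7 and Gzmb (vertical) against its UMIs of Lef1 and Ccr7 (horizontal), both on a log scale of 1 + UMIs with slight jitter, coloured by state. In the anti-CTLA-4 library 155 naive cells lie at 0 effector panel UMIs and 21 effector cells at 0 naive panel UMIs, and 123 cells hold some of both.

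The state is a range and not a sharp class. Of 304 anti-CTLA-4 members, 21 (6.91%) had UMIs of the effector panel only, 155 (51.0%) of the naive panel only, 123 (40.5%) of both and 5 of neither. Among the 123, 47 held just 1 effector UMI. Of 46 control members, 8 had the effector panel only, 18 the naive panel only, 16 both and 4 neither. Within 1 UMI of the line between the states lay 44 anti-CTLA-4 and 9 control members. The anti-CTLA-4 effector cells carried a median of 20 effector and 1 naive panel UMIs, while the naive cells carried a median of 7 naive panel UMIs and, in 155 of 248 cells, no effector UMI. Their depth was close, with medians of 4406 UMIs in effector and 4359 in naive cells.

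The naive share fell off with the size of the clonotype in the anti-CTLA-4 library. It was 81.6% among 304 cells with unexpanded clonotypes, 50% among 20 cells in clonotypes of 2 (10 cells, 27.2 to 72.8), 8.57% among 35 cells in clonotypes of 3 to 4, 1.32% among 76 cells in clonotypes of 5 to 9 and 4.11% among 73 cells in clonotypes of 10 or more. Cells of 1 clonotype share their history, and the 20 cells in clonotypes of 2 came from 11 clonotypes. The control library held only 4 CD8 T cells in expanded clonotypes, all in clonotypes of 2 and all naive. Unexpanded conventional CD4 T cells of the anti-CTLA-4 library, chosen by the matching rule, were naive in 201 of 294 (68.4%) and effector in 41 (13.9%).

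**Figure D2:**
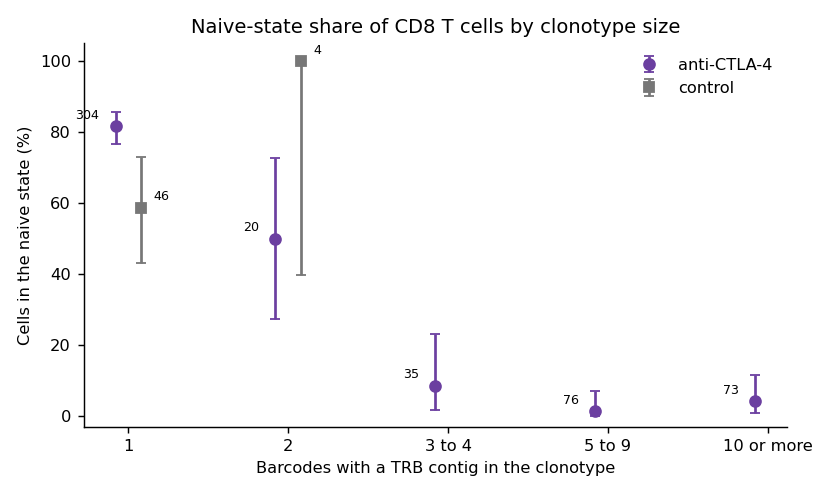
Percent of CD8 T cells in the naive state (vertical) by the number of barcodes in the clonotype (horizontal), circles for anti-CTLA-4 and squares for control, with exact 95% binomial intervals and the number of cells beside each point. In the anti-CTLA-4 library the share is 81.6% at 1 barcode, 50% at 2 and under 9% in larger clonotypes.

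The receptors gave a reading that the state rule did not use. The third complementarity-determining region (CDR3) is the stretch of the beta chain, made where V, D and J segments join, that contacts the antigen. Its nucleotides mark the descendants of 1 cell closely, because the joint is made at random. Clonotype labels can split 1 clone when a chain was missed or a second one added, so the nucleotides of each member's beta CDR3 were searched in all other barcodes of both TCR libraries. In the anti-CTLA-4 library 5 members shared theirs with another barcode. All 5 were in the effector state, 5 of 48 (10.4%, 3.47 to 22.7), while 0 of 248 naive members did (0%, 0 to 1.48). In the control library 1 of 27 naive members (3.70%, 0.0937 to 19.0) and 0 of 14 effector members shared theirs within the library. The 4 anti-CTLA-4 sequences are shown 5' to 3' in lower case as the identical stretch, since each was also held by an expanded clonotype. Whether the cells descend from 1 clone was not tested. The control sequence follows them.
TRBV13-2 with TRBJ1-2, first: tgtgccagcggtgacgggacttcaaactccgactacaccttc
TRBV13-2 with TRBJ2-4: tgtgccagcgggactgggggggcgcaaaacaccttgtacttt
TRBV13-2 with TRBJ1-2, second: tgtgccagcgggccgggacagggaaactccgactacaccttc
TRBV31 with TRBJ1-6: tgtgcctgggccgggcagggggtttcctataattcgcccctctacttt
control, TRBV19 with TRBJ2-1: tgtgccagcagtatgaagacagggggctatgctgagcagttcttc

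The first sequence, of 42 bases, was also that of a clonotype of 10 barcodes, 8 of them in the effector state. The member that carried it held 26 effector and 0 naive panel UMIs and no assembled alpha chain. The sequence with TRBJ2-4 was also that of a clonotype of 4 barcodes, all effector, and the member had the same alpha chain too. The third was that of a clonotype of 3 barcodes, all effector, and both alpha chains of the member were the same as there. In the expanded clonotypes with the TRBV13-2 sequences, the V calls included TRBV12-2 beside TRBV13-2. The sequence with TRBV31, of 48 bases, was held by 2 members and by both barcodes of a clonotype of 2, all 4 in the effector state. One of these members had no alpha chain and the alpha chain of the other matched none of them. Without these 5 cells the anti-CTLA-4 effector state held 43 members. The control naive member, with 17 naive and 2 effector panel UMIs, shared its sequence with 1 other control barcode. That barcode held 7 effector panel UMIs but was not in the effector state and did not meet the CD8 conditions. The alpha chains differed.

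Across libraries, 1 control member in the effector state had a beta CDR3 that an expanded anti-CTLA-4 clonotype also carried.
TRBV13-3 with TRBJ2-7: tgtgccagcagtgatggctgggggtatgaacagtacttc
That clonotype held 7 barcodes, all in the effector state, with 7 to 141 effector panel UMIs each, and the alpha chain was identical as well. The control member held 5 effector and 1 naive panel UMIs. The member's barcode is not among those shared between the libraries, and how the match arose was not tested.

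2 sets of members and other barcodes had beta CDR3 sequences that encode the same peptide and differ only at the base in capitals. The first set, of 45 bases, held a naive and an undetermined member, and the second, of 36 bases, an effector member.
anti-CTLA-4 naive member, TRBV2: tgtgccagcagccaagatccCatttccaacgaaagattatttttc
control undetermined member, TRBV2: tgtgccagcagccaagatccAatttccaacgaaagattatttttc
other anti-CTLA-4 barcode, TRBV5: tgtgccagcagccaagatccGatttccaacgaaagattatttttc
control effector member, TRBV13-1: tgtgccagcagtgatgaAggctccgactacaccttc
other control barcode, TRBV13-1: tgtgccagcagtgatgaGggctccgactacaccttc
The anti-CTLA-4 member held 10 naive and 1 effector panel UMIs, and the control effector member 0 naive and 2 effector panel UMIs. The other barcodes of both sets were in the naive state by the panel and had no CD8 and no Cd4 UMI, so they are no members.

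The repertoire of the members was broad. The 304 anti-CTLA-4 members carried 308 beta contigs from 18 V genes, led by TRBV13-2 (15.3%), TRBV13-1 (10.4%) and TRBV29 (9.74%). TRBV13-2 made up 20.8% of the beta contigs of effector members and 14.3% of those of naive members. TRBV31 made up 9 of 48 (18.8%, 8.95 to 32.6) in effector members and 13 of 252 (5.16%, 2.78 to 8.66) in naive members, and 2 of those 9 were the pair of cells with the same CDR3. The beta CDR3 was 14.1 ± 1.46 codons long in effector members and 13.8 ± 1.56 in naive members (SD over 48 and 252 contigs), and 14.3 ± 1.51 over the 43 distinct sequences of expanded CD8 cells, so the spread within each group exceeded the differences. An alpha chain was assembled in 62.2% (56.5 to 67.6) of anti-CTLA-4 and 80.4% (66.1 to 90.6) of control members. Within the anti-CTLA-4 library it was found in 77.1% of effector members, 60.1% of naive members and 80.4% of expanded CD8 cells.

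Beyond the 5 state genes, effector members of the anti-CTLA-4 library had higher summed levels of Cxcr6, Klrc1, Ifng and Gzma than naive ones. UMIs were summed over 48 effector and 248 naive cells and given per 10000 UMIs of the group. A gene was counted as higher or lower at a difference of at least 2-fold with at least 20 UMIs over both sides. Of 6016 genes tested, 500 (8.31%) were higher and 371 (6.17%) were lower in effector cells. The effector state was chosen within these same cells, so these folds are a description.

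Cxcr6, the receptor for the chemokine CXCL16 (chr9:123806475-123811760, GRCm38), had 143 UMIs in effector cells, 5.88 per 10000, and 18 UMIs in naive cells, 0.149 per 10000, a ratio of 39.3 (24 to 68.2). Bhlhe40, a transcription factor of activated and resident T cells, had 98 UMIs, 4.03 per 10000, in effector cells against 13 UMIs, 0.108 per 10000, in naive cells, a ratio of 37.3 (20.8 to 72.6). A single cell gave 38 of the 98. The inhibitory lectin receptor Klrc1 (NKG2A) stood at 3.74 per 10000 in effector and 0.274 in naive cells, a ratio of 13.6 (9.07 to 21). The cytokine Ifng had 26 UMIs in 7 of the 48 effector cells and 3 UMIs in the 248 naive cells, a ratio of 42.9 (13.1 to 221).

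Of the cytotoxic genes outside the state rule, 9 of 12 were higher in effector cells and none lower, with a median log2 ratio of 3.78 beside 0.10 over all genes tested. Gzma, which encodes granzyme A (chr13:113093825-113100981), had 259 UMIs in 18 of 48 effector cells, 10.6 per 10000, and 100 UMIs in 36 of 248 naive cells, 0.83 per 10000, a ratio of 12.8 (10.1 to 16.3). A single effector cell gave 108 of the 259. Gzmk had 22 UMIs in 12 effector cells and 0 in naive cells. The ratio was 36.3 when 3 counts over the group stand for the 0, and its exact lower limit was 27.1. Perforin (Prf1), the pore-forming partner of granzymes, had a ratio of 1.18 (0.623 to 2.09), so no difference was detectable at this depth.

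Memory and virtual memory genes were higher in 13 of 16 cases and none was lower, with a median log2 ratio of 1.33. Cxcr3, a receptor for interferon-induced chemokines, had a ratio of 4.51 (2.68 to 7.57), Ly6c2 5.04, the adhesion receptor Cd44 2.47 and the receptor chain for IL2 and IL15, Il2rb, 2.08. Eomes, a transcription factor of memory cells, had 5 UMIs in effector and 53 in naive cells, a ratio of 0.467 with an interval that includes 1 (0.146 to 1.16). Of the inhibitory and exhaustion genes 5 of 6 were higher. Tox was counted as lower, but its ratio of 0.171, from 1 UMI in effector and 29 in naive cells, had an interval that includes 1 (0.00418 to 1.03). Ctla4 was among the 5, with a ratio of 2.01 and 19 of its 39 UMIs in a single cell. Its log2 ratio was -0.48 without likely doublets, which were barcodes with more than 1 beta chain, more than 2 alpha chains, a BCR contig or at least 3 UMIs of another lineage. That setting left 233 of 304 anti-CTLA-4 and 28 of 46 control members. Pdcd1, which encodes the checkpoint receptor PD-1 (chr1:94038305-94052553), had 53 UMIs in effector and 23 in naive cells, a ratio of 11.4 (6.87 to 19.5). Only 8 of the 48 effector cells held Pdcd1, and 1 of them gave 21 UMIs.

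Naive genes that the state rule did not use fell short of a 2-fold difference: 0 of 12 were called in either direction, with a median log2 ratio of -0.45. Tcf7, the transcription factor TCF-1 of naive and stem-like T cells (chr11:52252371-52283014), had a ratio of effector over naive of 0.811 (0.589 to 1.1), Klf2 of 0.757 (0.608 to 0.933), and S1pr1, the exit receptor that Klf2 induces, of 0.693 (0.449 to 1.03). Il7r, the interleukin-7 receptor, had a ratio of 1.37. Costimulatory receptors were higher in 6 of 10 cases, among them Tnfrsf9 (4-1BB) with a ratio of 7.55. Glycolysis and hypoxia genes were higher in 6 of 11 cases. Residency genes were higher in 4 of 7, among them Rgs1 with a ratio of 5.15, while Cd69, the early activation marker, was lower with a ratio of 0.422 (0.231 to 0.715). Type I interferon genes were higher in 2 of 14 cases and lower in 1. Genes of fibroblasts, at 4 of 4 lower, and of neutrophils, at 2 of 2 lower, moved with the state too. Their UMIs lay in few cells: 113 of 185 Col1a1 UMIs and 60 of 65 S100a9 UMIs of the anti-CTLA-4 members came from 1 cell each.

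Cxcr6 and Klrc1 ran in order across finer groups, while Prf1 and Ctla4 did not. Effector-only cells (21, no naive panel UMI) stood apart from cells with at least 3 UMIs of both panels (42) and naive-only cells (155, no effector panel UMI), the cells with both panels having been set apart after their values were seen. Cxcr6 stood at 10.4 per 10000 in effector-only cells, 1.63 in cells with both panels and 0.0887 in naive-only cells, beside 19.8 in expanded CD8 cells. Klrc1 stood at 5.49, 0.963 and 0.163, beside 10.3 in expanded cells. Tcf7 ran the other way, at 1.55, 2.19 and 2.68, beside 0.681 in expanded cells. Its ratio of cells with both panels over naive-only cells had an interval that includes 1 (0.608 to 1.09). Klf2 stood at 4.55, 3.02 and 6.14, beside 1.1, so it had no such order. Gzma was highest in the effector-only cells, at 18.6 per 10000 in 6 of 21 cells, against 4.92 in expanded cells, but a single cell gave 108 of its 180 UMIs. Prf1 stood at 0.725, 0.465 and 0.473 per 10000 and Ctla4 at 3.11, 0.498 and 0.946. Eomes had 1 UMI in the effector-only cells, and stood at 0.697 per 10000 in cells with both panels and 0.355 in naive-only cells.

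**Figure D3:**
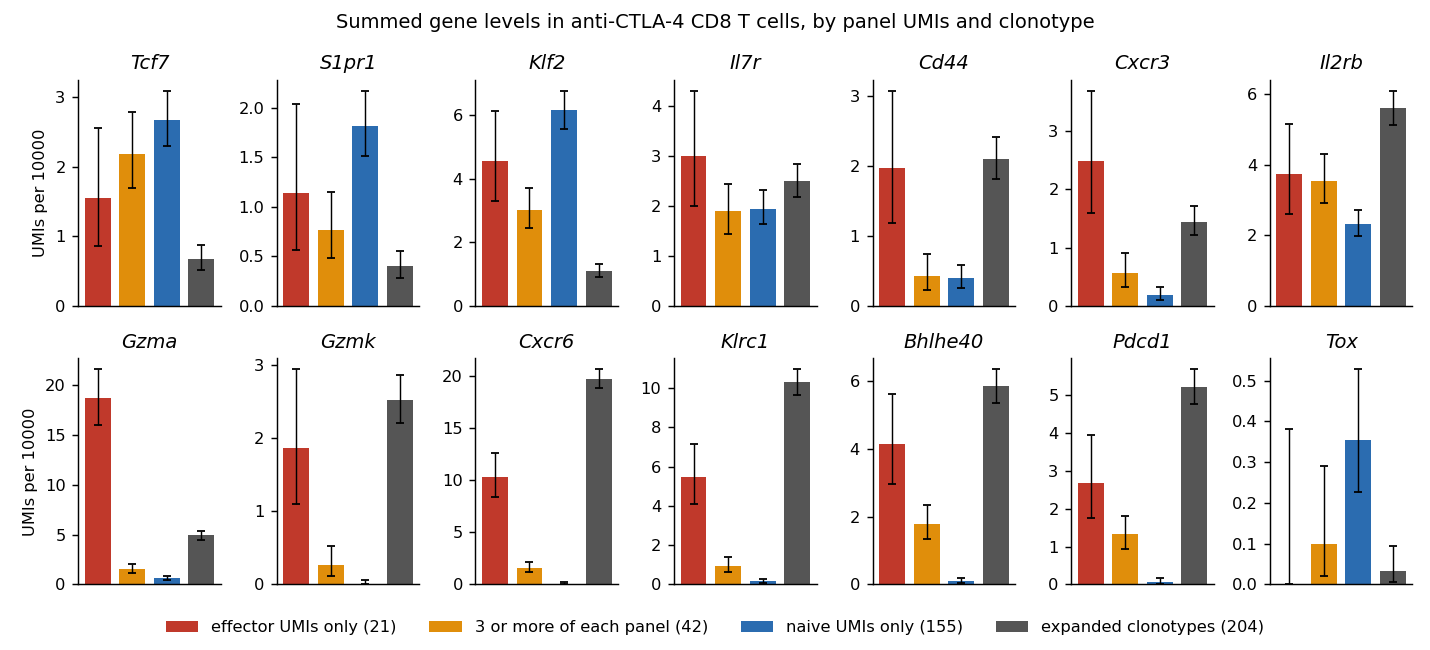
Summed UMIs per 10000 (vertical, linear, 1 scale per gene) in the anti-CTLA-4 library for effector-only cells, cells with at least 3 UMIs of both panels, naive-only cells and expanded CD8 cells, with exact 95% Poisson intervals. Cxcr6, Klrc1, Bhlhe40 and Pdcd1 are lowest in naive-only cells, and Tcf7, S1pr1 and Klf2 are highest there.

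Cells with both panels had more of some cytotoxic and memory genes than naive-only cells. Of 4809 genes tested, 264 (5.49%) were higher and 260 (5.41%) lower in the 42 cells with both panels. These 42 cells were deeper, with 301239 UMIs together and a median of 1673 detected genes. The 155 naive-only cells held 676438 UMIs and a median of 1373 genes. Numbers of cells with a gene were not thinned here, so they can rise with depth. Cytotoxic genes outside the state rule were higher in 4 of 7 cases and memory genes in 7 of 16, with 2 lower. Gzma was present in 16 of 42 cells against 16 of 155, with a ratio of 2.57 (1.66 to 4.01), Cxcr3 had a ratio of 2.94, Ly6c2 of 3.05 and Eomes of 1.96 (1.04 to 3.68). Tcf7 had a ratio of 0.819 (0.608 to 1.09), S1pr1 of 0.42 and Cd44 of 1.08 (0.512 to 2.17). Bhlhe40 had a ratio of 20.2 (8.71 to 57.5), but 1 cell gave 38 of its 54 UMIs, and 1 cell also gave 21 of the 40 Pdcd1 UMIs. Genes of other cells were higher as well: Cd74, an antigen-presentation gene, had 165 UMIs in 6 of the 42 cells and the macrophage gene Lyz2 109 UMIs in 11. Whether cells captured together contribute to this group was not tested.

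Ribosomal protein genes took a larger part of the transcripts in naive than in effector cells. In the anti-CTLA-4 library they made up 33.7% of UMIs in effector and 41.2% in naive members, with cell medians of 31.6% and 41.4%. Effector-only cells had a cell median of 24.5%, close to the 23.2% of expanded CD8 cells, while cells with at least 3 UMIs of both panels (42.2%) were close to naive-only cells (40.9%). In the control library the cell medians were 24.7% in 8 effector-only, 30.6% in 9 cells with at least 3 UMIs of both panels and 39.0% in 18 naive-only members, so there the cells with both panels were nearer to the effector-only cells. This share shifts every other gene. With ribosomal, mitochondrial and tumour-like genes left out of the total, 314 genes were higher and 537 lower in effector than in naive members, so that 36.9% of calls were higher in place of 57.4%, and the median log2 ratio over all genes was -0.07 in place of 0.10. On that scale Il2rb and Ctla4 fell short of a 2-fold difference, with log2 ratios of 0.88 and 0.84, and Eomes passed it, with -1.16.

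**Figure D4:**
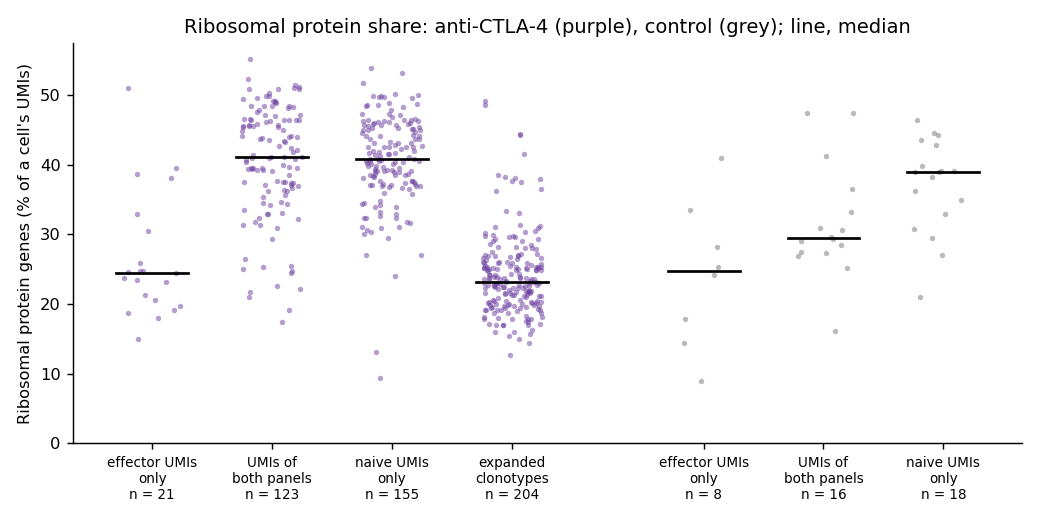
Percent of each cell's UMIs from ribosomal protein genes (vertical), purple for anti-CTLA-4 and grey for control, by the panels of which a cell held at least 1 UMI, with expanded CD8 cells beside them and a line at each median. Effector-only and expanded anti-CTLA-4 cells have medians of 24.5% and 23.2%, against 40.9% in naive-only cells.

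Set against the 204 expanded CD8 cells of the anti-CTLA-4 library, the 304 unexpanded ones had more of the naive program and less of the effector one. Of 7488 genes tested, 485 (6.48%) were higher and 961 (12.8%) lower in unexpanded cells. Without ribosomal, mitochondrial and tumour-like genes in the total the counts were 845 and 584, so that 59.1% of calls were higher in place of 33.5%, and the median log2 ratio was 0.15 in place of -0.20. The balance of higher and lower calls thus depends on the scale. The genes printed below for this comparison kept their call on both scales except Gzma, with a log2 ratio of -0.65 on the second. Il7r was slightly positive there at 0.05. Among other genes of the lists, Ctla4 (-0.80) and Srgn (-0.78) fell short of a 2-fold difference on the second scale. Satb1 (1.08) and Tubb5 (1.31) passed it there only.

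Naive genes were higher in 12 of 14 cases in unexpanded cells and none was lower, with a median log2 ratio of 2.01. Rflnb, a cytoskeletal regulator, had 423 UMIs in unexpanded and 11 in expanded cells, a ratio of 24.4 (13.5 to 49.3). Dapl1, a gene of quiescent T cells, had a ratio of 18.4 with 58 UMIs against 2, Klf2 of 4.8, S1pr1 of 3.9 and Tcf7 of 3.55. Il7r, with a ratio of 0.809, was within 2-fold. Tox, a factor of exhausted T cells, went with the unexpanded cells, with 30 UMIs against 3 and a ratio of 6.36, and so did Eomes with a ratio of 2.07. The immediate-early gene Fos had a ratio of 13.2 and Socs3, a feedback inhibitor of cytokine signalling, one of 6.57, with 7 of 15 genes of the dissociation and heat stress list higher and 2 lower.

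Cytotoxic genes were lower in 15 of 19 cases in unexpanded cells and none was higher, with a median log2 ratio of -2.43. Inhibitory and exhaustion genes were lower in 8 of 9, Tox being the exception, with a median of -2.82. Cxcr6 had 175 UMIs in unexpanded cells, 1.18 per 10000, and 1857 in expanded cells, 19.8 per 10000, a ratio of 0.0599. Havcr2, the checkpoint receptor TIM-3, had a ratio of 0.0536, Gzmk of 0.0697, Klrc1 of 0.0822 and Pdcd1 of 0.114. Gzma was nearer, with a ratio of 0.497, and perforin (Prf1) with 0.571 was within 2-fold. Memory genes were lower in 11 of 16 cases and higher in 3, residency genes lower in 6 of 9, and glycolysis genes lower in 10 of 13. Genes of other cells moved with this comparison too. B cell genes were lower in 4 of 7 cases, Cd74 with a ratio of 0.194 and H2-Aa with 0.159. Of monocyte and macrophage genes 2 of 5 were higher, Lyz2 with a ratio of 5.2, and 1 was lower, Cst3 with 0.144. Fibroblast genes were higher in 4 of 4, Col1a1 with a ratio of 16.8 and Col3a1 with 25.8, and neutrophil genes in 2 of 3, S100a9 with 8.26, with 1 lower. Most Col1a1 and S100a9 UMIs of the unexpanded cells came from 1 cell each, as given above. The part of such genes in the result was not tested. Spp1 and Ifitm1, with ratios of 0.0329 and 0.0277, were among the lowest.

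By summed UMIs, anti-CTLA-4 members differed from control members in granzyme A, checkpoint genes and genes of other cells. A large part of the granzyme A sum came from 1 cell. Of 6436 genes tested between 304 and 46 cells, 562 (8.73%) were higher and 798 (12.4%) lower in the anti-CTLA-4 library. Without ribosomal, mitochondrial and tumour-like genes in the total the counts were 732 and 562, so that 56.6% of calls were higher in place of 41.3%, and the median log2 ratio was -0.01 in place of -0.19. Treatment, library and tumour-cell content all differ between the libraries and cannot be told apart. The state of the members differs too, and its part in the differences was not tested. In effector-state members alone, 48 against 14 cells, Pdcd1 had a ratio of 0.5 (0.299 to 0.863). Lag3 had a ratio of 0.0505 (0.0214 to 0.106) in those cells.

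Pdcd1 had 88 UMIs in 17 of 304 anti-CTLA-4 members, 0.595 per 10000, and 78 UMIs in 17 of 46 control members, 4.77 per 10000, a ratio of 0.125 (0.091 to 0.172). Lag3, a checkpoint receptor for MHC class II, had 22 UMIs, 0.149 per 10000, in anti-CTLA-4 members and 75 UMIs, 4.58 per 10000, in control members, a ratio of 0.0325 (0.0192 to 0.0528). Both genes were near 0 in tumour-like control barcodes, Pdcd1 at 0.00133 and Lag3 at 0.00399 per 10000. After thinning to 1000 UMIs, Pdcd1 was seen in 2.63% of anti-CTLA-4 and 20% of control members, and in none of 113 anti-CTLA-4 and 495 control macrophages, whose median depths were 4434.5 and 4685 UMIs. Lag3 was seen in 1.97% of anti-CTLA-4 and 24.4% of control members. In unexpanded CD4 cells of the same libraries the log2 ratios were -1.48 for Pdcd1 and -3.40 for Lag3.

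Of the inhibitory list 3 of 6 genes were lower in anti-CTLA-4 members and none was higher. The third, Tnfrsf9, had a ratio of 0.0921 (0.0703 to 0.12) and stood at 1.26 per 10000 in tumour-like control barcodes, against 0.703 in anti-CTLA-4 and 7.64 in control members. The killer receptors Klrk1 (NKG2D) and Klrc1 had ratios of 0.198 and 0.252. Effector transcription factors were lower in 6 of 9 cases and glycolysis genes in 6 of 11. Cytotoxic genes were lower in 8 of 16, with a median log2 ratio of -1.02 that was 0.031 without likely doublets. The gene that was higher was Gzma, with 361 UMIs in anti-CTLA-4 members and 3 in control members, a ratio of 13.3 (4.52 to 64.9). A large part of the 361 came from the single effector cell given above, which the interval does not take into account. After thinning, Gzma was seen in 6.91% of 304 anti-CTLA-4 and 2.22% of 45 control members, and in 0% and 2.02% of macrophages. In unexpanded CD4 cells it had 17 UMIs in the anti-CTLA-4 and 1 in the control library, a ratio of 1.41 (0.221 to 59). Naive genes were higher in 3 of 14 and lower in 2. Tcf7 had a ratio of 2.2 (1.37 to 3.76), with 23% of anti-CTLA-4 and 11.1% of control members positive after thinning, and Klf2 had a ratio of 1.51. Type I interferon genes were higher in 2 of 14 cases and lower in 1.

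Some genes stood apart in other cells as well. Nrap, a muscle anchoring protein gene, had 225 UMIs in anti-CTLA-4 members and 0 in control members. With 3 counts over the group in place of the 0, the ratio was 8.30. Nrap stood at 1.66 per 10000 in anti-CTLA-4 and 0.58 in control unexpanded CD4 cells, and at 0.319 and 0.0382 in macrophages. Lars2, a mitochondrial leucyl-tRNA synthetase gene, had a ratio of 3.56 in members, with 29.8 per 10000 in anti-CTLA-4 and 8.37 in control members. It stood at 24.5 and 13.7 per 10000 in CD4 cells and at 40.5 and 13.5 in macrophages. Crabp1, a retinoic acid binding protein gene of the tumour-like barcodes, had 0 UMIs in anti-CTLA-4 members and 53 in 24 of 46 control members. Spp1, which encodes osteopontin, had 6 UMIs in anti-CTLA-4 members and 62 in control members, and stood at 72.3 per 10000 in tumour-like control barcodes. The part of free RNA in such lower levels in anti-CTLA-4 members was not tested.

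The control naive state was not uniform, which was noticed after the values were seen. Members were therefore also split by Lef1 and by Ccr7 (chr11:99144196-99155077), a receptor that activated T cells and dendritic cells can carry too. Lef1 was absent and Ccr7 had at least 5 UMIs in 47 of 304 anti-CTLA-4 members (15.5%, 11.6 to 20) and in 10 of 46 control members (21.7%, 10.9 to 36.4). Of the 10 control cells, 9 (90%) carried a UMI of Pdcd1, Lag3 or Tnfrsf9, and 8 carried at least 2 of these genes, while 12 of the 47 anti-CTLA-4 cells (25.5%) carried 1 or more and 6 at least 2. Among cells with Lef1, 189 and 17, the shares with any of the 3 genes were 9.52% and 17.6%, and among the remaining cells 27.9% and 52.6%. These shares were not thinned, so they can rise with depth. Control cells with Ccr7 and no Lef1 had a median of 4892 UMIs, those with Lef1 2720 and the remaining ones 2460. The anti-CTLA-4 medians were 5093, 4473 and 3680.5. The 10 control cells held 5 to 35 Ccr7 UMIs each and all were called naive by the panel. Even so, 8 of them held Nkg7, a gene of the effector panel, with a median of 5 UMIs over the 10. Nkg7 was found in 16 of the 47 anti-CTLA-4 cells. In cells with at least 5 Ccr7 UMIs and no Lef1, the dendritic cell gene Fscn1 and the B cell gene Cd79a were at 0 in both libraries. Antigen-presentation genes were not all absent. Cd74 had a UMI in 8 of the 47 anti-CTLA-4 and 0 of the 10 control cells, and H2-Aa in 1 cell of each library.

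**Figure D5:**
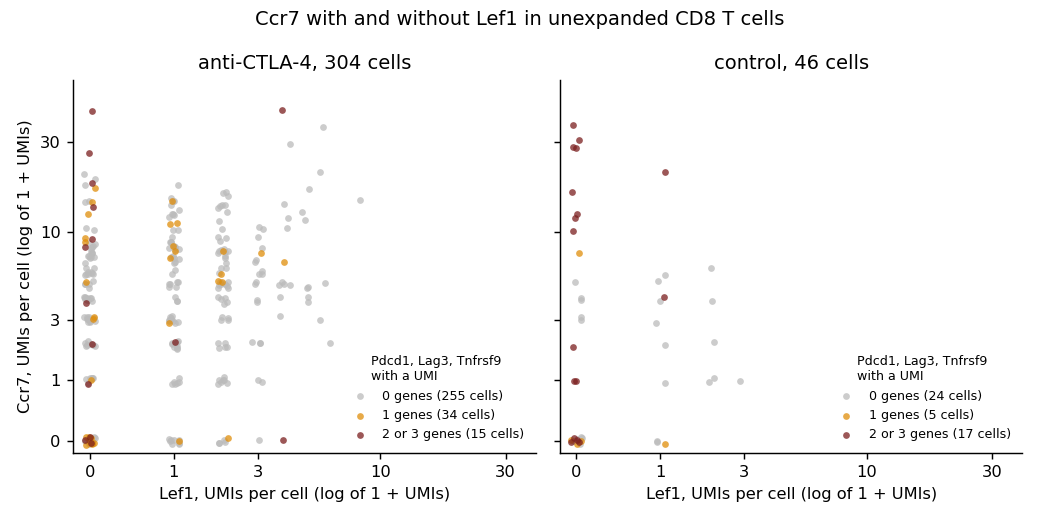
Each point is 1 CD8 T cell with an unexpanded clonotype, anti-CTLA-4 left and control right, with its Ccr7 UMIs (vertical) against its Lef1 UMIs (horizontal), both on a log scale of 1 + UMIs with slight jitter, coloured by how many of Pdcd1, Lag3 and Tnfrsf9 had a UMI. Of cells with at least 5 Ccr7 UMIs and no Lef1, 12 of 47 in the anti-CTLA-4 library and 9 of 10 in the control library carry at least 1 of these genes.

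Taking Ccr7 out of the panel, so that Lef1 alone stood for the naive state, the naive share was 42.8% in anti-CTLA-4 and 30.4% in control members, and the effector share 32.9% and 47.8%. In members with Lef1, 189 against 17 cells, 722 of 4933 genes tested (14.6%) were higher and 749 (15.2%) lower in the anti-CTLA-4 library. There the naive genes had ratios of 0.883 (0.614 to 1.31) for Klf2, 0.895 (0.474 to 1.9) for S1pr1 and 1.93 (0.922 to 4.85) for Tcf7, with intervals that include 1. Gzma had 117 UMIs in anti-CTLA-4 and 0 in control members, a ratio of 2.28 when 3 counts stand for the 0. Pdcd1 was found in 5 of 189 and 3 of 17 cells, a ratio of 0.104 (0.0433 to 0.267). Crabp1 had 0 and 19 UMIs in these cells. The galectin gene Lgals1, which stood at 67.5 per 10000 in tumour-like control barcodes, had a ratio of 0.0601 there.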

How the data were processed

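Per the labels, 5' droplet libraries were made from dissociated tissue of anti-CTLA-4 and PBS-treated mice, 1 expression library per group. The submitters' processing notes name Cell Ranger 5.0.0 and the builds mm10 and GRCm38. The expression files hold deposited raw UMI counts per gene and barcode, and the TCR and BCR files give each contig's UMI count and clonotype as the authors deposited them. Groups were taken from the titles.

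The members and gene lists were chosen with earlier results of these data known. UMIs were summed per group of cells and divided by the group's total. Ratios have exact conditional binomial intervals and shares Clopper-Pearson intervals of 95%. Log2 ratios add 0.5 UMI to each side, and medians of lists use them. A gene was called at 2-fold with at least 20 UMIs over both sides. Of lists, only members with 20 UMIs were counted, without the state genes where the states were compared. Counts of 0 were bounded with 3 counts, and ratios formed so leave out the counting error of the other side. PCR and free RNA are not in these intervals. Doublets were not called; leaving out barcodes with more than 1 beta chain, more than 2 alpha chains, a BCR contig or at least 3 UMIs of another lineage's genes was an alternative. Macrophages needed at least 5 C1q UMIs. Named genes were the 10 highest and 10 lowest by the interval bound nearest to 1, with at least 50 UMIs (20 against the control) in 10% of the higher side's cells, plus from each of 21 lists the 2 farthest members and the 2 with most UMIs, plus state and checkpoint genes; the text gives part of them. Mitochondrial, ribosomal and receptor genes were excluded. Some genes are not reported here and were left out of the naive panel and the lists, so the naive panel is smaller than the one first planned. The splits by Lef1 and Ccr7, by both panels and by Crabp1, and the genes Fscn1 and Cd79a, were chosen after values were seen. Gene coordinates are from GENCODE M21, 1-based. Alternatives were limits on mitochondrial share, genes, CD8 UMIs and chains, other panels, thinning, UMI minimums and totals. The comparison was tested on simulated counts drawn independently for each gene. Those counts lack the heaping of UMIs in single cells, so the test says nothing about that. Python 3.11.15, numpy 2.4.6, pandas 2.3.3, scipy 1.17.1 and matplotlib 3.10.9 were used.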

Additional observations from a re-analysis of the deposited data

Results flagged for a closer look

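The anti-CTLA-4 BCR library was used in the report only to mark likely doublets. The control group had no BCR library, so this mark could fall on anti-CTLA-4 cells only. The BCR library held contigs for 10 of the 304 anti-CTLA-4 members (3.29%, 1.59 to 5.97). Of these 10, 9 had a heavy chain, 3 were effector and 7 naive, and 1 carried a UMI of a B cell gene. The contigs had a median of 6 UMIs. Similar shares were found in expanded CD8 cells (7 of 204, 3.43%) and unexpanded CD4 cells (9 of 294, 3.06%), against 2 of 126 macrophages (1.59%).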

How the results depend on the processing

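No paired analysis was possible because each group has 1 library. The unexpanded share of anti-CTLA-4 cells was 53.5% where an alpha chain was needed as well. Calling states only where the other panel was at 0 gave naive shares of 51.0% and 39.1% and effector shares of 6.91% and 17.4% in anti-CTLA-4 and control members. Without Ccr7, a setting chosen after seeing the data, they were 42.8% and 30.4%, and 32.9% and 47.8%. The anti-CTLA-4 naive share was 58.9% after thinning, where 25% of these members were undetermined, and 86.5% with larger panels. With at least 50 UMIs, fewer genes were tested, and the counts of higher and lower genes were 248 and 297 for anti-CTLA-4 over control, 253 and 605 for unexpanded over expanded, and 199 and 117 for effector over naive. With at least 1 UMI they were 994 and 4213, 1584 and 2534, and 2290 and 1009. Leaving ribosomal, mitochondrial and tumour-like genes out of the total gave 845 and 584 for unexpanded over expanded and 314 higher for effector over naive.

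Of 887 values recomputed for anti-CTLA-4 over control, 23 changed sign, of 943 for unexpanded over expanded 8, and of 892 for effector over naive 14. Of these, 6, 1 and 4 were list medians or genes past 2-fold, given here. For anti-CTLA-4 over control, the cytotoxic median was 0.031 and the residency median 0.61 without likely doublets. The residency median was also 0.14 with at least 2 CD8 UMIs, 0.13 with at least 50 UMIs and 0.015 on the other total, and H2-Aa was at 1.61 with at least 2 CD8 UMIs. Without likely doublets, Cd74 was at 0.15 in unexpanded over expanded, and Ctla4 at -0.48, Tnfrsf4 at -0.10 and Lyz2 at 0.79 in effector over naive. H2-Aa was at -1.47 there where an alpha chain was needed. These are log2 ratios, and the cause was not tested. The small control group of 46 cells and single cells with many UMIs limit what can be read from any 1 gene.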
